A study of Mus musculus with 17 samples.

Results

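The CD300 family and a set of paired inhibitory receptors were described here in the mouse heart 5d after experimental myocardial infarction (MI). The 9 genes were Cd300lf, Cd300ld, Cd300a, Cd300lb, Cd300lg, Pirb, Lilrb4a, Sirpa and Cd47, out of 31647 features in the count table. They were chosen by symbol with their difference between infarct and sham tissue already known, so that difference is given below as a description, with no test. Male C57BL/6J wild-type mice aged 8 to 11 weeks had the left anterior descending coronary artery (LAD), which supplies the front wall of the left ventricle, tied off for good, or a sham operation in which it was not tied. At day 5, left ventricular tissue was taken from 8 sham mice, and the infarct zone (IZ) was dissected from the left ventricle of 9 randomly selected MI mice. Transcripts were counted by MACE, in which reads come from the 3′ ends of polyadenylated RNA. Each library is 1 mouse. Both groups are whole tissue, so fewer cells of a type and less RNA per cell cannot be told apart.

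Paired receptors are families in which close relatives send opposite signals into a leukocyte. Inhibitory members carry immunoreceptor tyrosine-based inhibitory motifs (ITIMs) in a cytoplasmic tail and recruit the phosphatases SHP-1, SHP-2 and SHIP-1, whereas activating members have short tails and signal through adaptors with an activation motif (ITAM), such as DAP12 or the Fc receptor gamma chain, and the kinase Syk. CD300 receptors bind lipids exposed on stressed or dying cells and tune the response of macrophages, granulocytes and mast cells. SIRPα on myeloid cells and its ligand CD47, which is carried by most cells, restrain the engulfment of living cells. Cd300lg, also known as CLM-9 or nepmucin, departs from the family in being a product of capillary and venular endothelium.

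On chromosome 11 of the mouse genome (GRCm38), 11 CD300 genes lay side by side within 244 kb, and Cd300lg lay 12.8 Mb away at chr11:102041509-102055620 on the plus strand. Within the cluster, Cd300a occupied chr11:114890041-114904654 on the plus strand, and Cd300lb (chr11:114922781-114934386), Cd300ld (chr11:114982274-114989922) and Cd300lf (chr11:115116214-115133992) lay on the minus strand. Pirb was at chr7:3711409-3720391 on the minus strand. Lilrb4a (chr10:51490956-51496611), Sirpa (chr2:129592835-129632228) and Cd47 (chr16:49800533-49915010) were on the plus strand.

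Some genes of the cluster share a stretch of near-identical coding sequence. The most alike 150 bases shared by coding exons of an annotated pair are printed here 5′ to 3′ on the strand of each gene, because they are the part of these transcripts in which a short read could be given to the wrong gene. Capitals mark the bases at which the pair differed. Cd300lf (exon 2, chr11:115126134-115126283, minus strand) and Cd300ld (exon 2, chr11:114987326-114987475, minus strand) had 149 identical bases of 150, and so did Cd300a (exon 2, chr11:114893413-114893562, plus strand) and Cd300c2 (exon 2, chr11:115000661-115000810, minus strand).
Cd300lf: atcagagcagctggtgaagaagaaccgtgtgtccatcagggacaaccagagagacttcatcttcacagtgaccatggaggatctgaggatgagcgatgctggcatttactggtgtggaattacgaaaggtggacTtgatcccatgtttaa
Cd300ld: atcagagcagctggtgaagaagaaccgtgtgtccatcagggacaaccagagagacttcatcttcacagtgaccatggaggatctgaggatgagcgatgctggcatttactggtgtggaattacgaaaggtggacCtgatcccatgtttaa
Cd300a: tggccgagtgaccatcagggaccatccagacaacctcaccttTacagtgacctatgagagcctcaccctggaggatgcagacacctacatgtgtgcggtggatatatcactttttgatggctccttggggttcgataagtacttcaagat
Cd300c2: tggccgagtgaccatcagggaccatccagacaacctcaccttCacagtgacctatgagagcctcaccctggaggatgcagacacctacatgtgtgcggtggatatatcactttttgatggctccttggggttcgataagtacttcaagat

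The 3′ ends, from which MACE reads are taken, were different for all but 1 of the 9 genes. In a search of the last 500 bases of the coding transcripts against all annotated transcripts of other genes, with at least 95% identity over at least 100 bases, only Lilrb4a had matches. Its last 500 bases were identical to those of Gm49339, an annotated locus that overlaps it on the same strand, and 96.8% identical over 502 bases to those of Lilr4b. The count table held 1 row for Lilrb4a and Gm49339 together, and that row is called Lilrb4a below. The match between Cd300lf and Cd300ld ended 1388 bases before the 3′ end of the longest coding Cd300lf transcript. When all annotated transcripts were searched, a choice made after the data had been seen, Cd300lf and Pirb had matches too, through the short transcripts Cd300lf-204 and Pirb-204, and the number of near-identical genes went from 2 to 12.

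RefSeq promoter sequences (GRCm38.p6) were at hand for 6 of the 9 genes, namely Cd300a, Cd300lb, Cd300ld, Cd300lf, Cd47 and Pirb. Windows from 250 bases before to 50 after the start were searched on both strands for the purine-rich letters GAGGAA and GAGGAAGT, of the kind bound by the myeloid factor PU.1, and for TTGCGCAA and TTGCNNAA, of the kind bound by C/EBP factors. A match to GAGGAAGT is also a match to GAGGAA, and one to TTGCGCAA is also one to TTGCNNAA. GAGGAA was found in 4 of the 6 (Cd300a, Cd300ld, Cd300lf and Pirb), against 28.3% of 32851 promoter windows, and GAGGAAGT in 3 of the 6 (Cd300ld, Cd300lf and Pirb), against 3.2%. TTGCNNAA was found in Cd300a (10.8% of all windows), and TTGCGCAA in 0 of the 6 (0.183% of all windows). GAGGAAGT also lay in the windows of Cd300ld3, Cd300ld4 and Cd300ld5, which had at most 2 counts in any library. These matches are a description of letters and not of bound sites. Among the 6, levels were higher in every IZ library for the 4 genes with a match and also for Cd300lb and Cd47, which had none. The 250 bases before the start are printed for the 4 genes with a match. GAGGAA, GAGGAAGT and TTGCNNAA of either strand are in capitals (GAGGAA reads TTCCTC on the other strand). The printed bases lie at chr11:114889791-114890040 (plus) for Cd300a, chr11:114989887-114990136 (minus) for Cd300ld, chr11:115133993-115134242 (minus) for Cd300lf and chr7:3720383-3720632 (minus) for Pirb. The GAGGAAGT of Cd300lf lies outside the printed bases.
Cd300a promoter: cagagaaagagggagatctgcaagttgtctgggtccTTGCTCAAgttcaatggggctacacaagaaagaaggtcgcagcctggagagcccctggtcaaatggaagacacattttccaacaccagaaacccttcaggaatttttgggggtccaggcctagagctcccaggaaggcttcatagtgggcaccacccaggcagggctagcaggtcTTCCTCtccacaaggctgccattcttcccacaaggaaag
Cd300ld promoter: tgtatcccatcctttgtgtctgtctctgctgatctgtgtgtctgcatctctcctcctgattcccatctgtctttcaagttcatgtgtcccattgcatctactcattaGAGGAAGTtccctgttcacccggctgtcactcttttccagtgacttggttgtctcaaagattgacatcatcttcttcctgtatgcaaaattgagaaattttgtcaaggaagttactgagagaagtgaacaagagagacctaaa
Cd300lf promoter: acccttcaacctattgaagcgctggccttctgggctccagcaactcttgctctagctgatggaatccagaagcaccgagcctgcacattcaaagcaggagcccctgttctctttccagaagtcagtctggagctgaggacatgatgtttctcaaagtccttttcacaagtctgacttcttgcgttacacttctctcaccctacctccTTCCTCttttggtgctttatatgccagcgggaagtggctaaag
Pirb promoter: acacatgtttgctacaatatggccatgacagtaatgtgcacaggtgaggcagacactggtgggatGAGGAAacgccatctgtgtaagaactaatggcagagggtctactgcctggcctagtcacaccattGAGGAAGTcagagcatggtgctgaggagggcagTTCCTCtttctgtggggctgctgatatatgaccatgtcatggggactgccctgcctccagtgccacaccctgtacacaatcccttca

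Library totals were 1237675 to 4738307 counts. Levels are given in CPM, the count per 1e6 counts of a library size that was scaled by the trimmed mean of M-values, and 12301 genes passed the filter on low counts, all 9 described here among them. IZ replicate 1 stood apart from the other 8 IZ libraries. Its summed cardiomyocyte markers were 26854 CPM, against 2757 to 6507 CPM in the other IZ libraries and 60428 to 72184 CPM in sham, and its summed macrophage markers were 2117 CPM, against 3959 to 5676 CPM and 435 to 613 CPM. Results that rest on this library are given with and without it.

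Of the 9 genes, 8 were higher in IZ and 1, Cd300lg, was lower, and for each of them the 8 sham and 9 IZ libraries did not overlap. In edgeR's quasi-likelihood test with an adjusted p under 0.05, 36.3% of all tested genes were called higher, 33.1% lower and 69.5% in either direction. Every IZ library lay above every sham library for 16.6% of tested genes and below for 16.5%. Since this contrast chose the genes, nothing is read from their count.

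**Figure D1:**
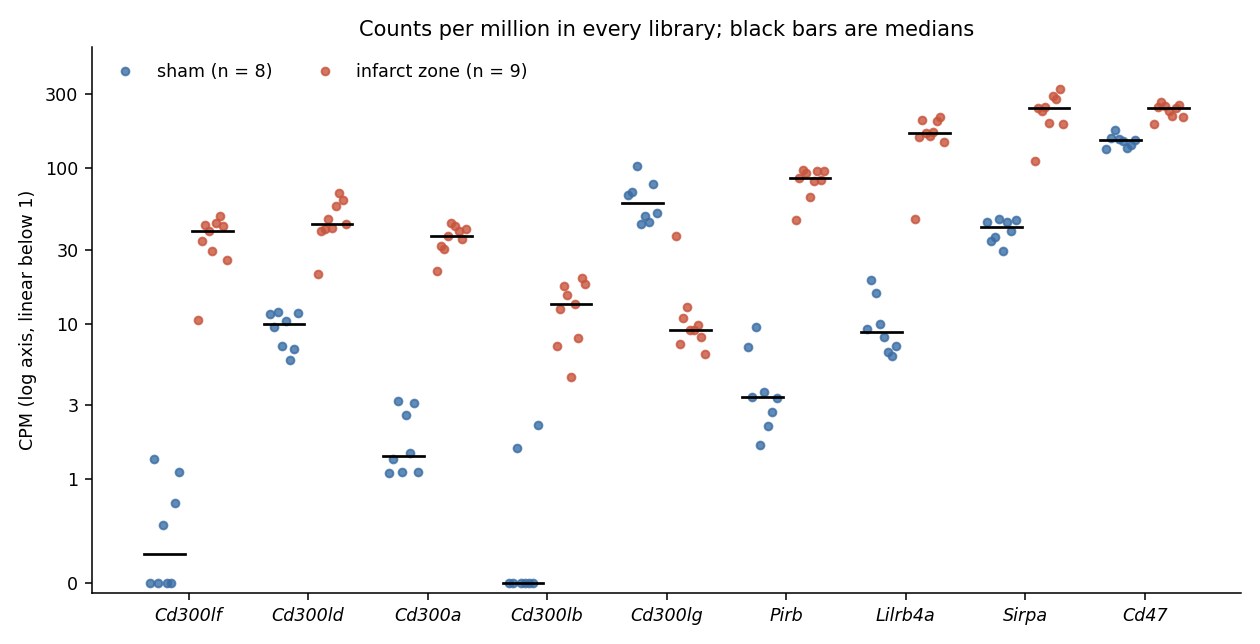
Levels of the 9 genes in every library, in CPM on an axis that is logarithmic above 1 and linear below. Blue points are the 8 sham libraries, red points the 9 IZ libraries and black bars the medians; the groups do not overlap for any gene, and IZ replicate 1 is the lowest IZ library for 7 genes and the highest for Cd300lg.

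Cd300lf encodes CLM-1, an inhibitory receptor with ITIMs that binds phosphatidylserine and ceramide. It had 0 counts in 4 of the 8 sham libraries and at most 2 in the others. In IZ it ranged from 10.5 CPM over a median of 39.4 to 49.3 CPM, with 29 to 263 counts per library. The groups were far apart, and IZ replicate 1 was the lowest of the IZ libraries. Pooled over libraries, the level was 0.498 CPM in sham from 7 counts and 35.9 CPM in IZ from 1161 counts, a ratio of 72.1 with a 95% interval of 34.9 to 180, exact and for counting error only. The fitted log2 fold change was 6.03 ± 0.43 (SE). Rab37, which overlaps Cd300lf on the opposite strand, had 0 to 4 counts in sham libraries and 0 to 6 in IZ libraries, and whether the counting used strand is not given in the sources used here.

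Cd300ld encodes CLM-5, an activating relative that pairs with the Fc receptor gamma chain. In contrast to Cd300lf it was present in every sham library, from 5.88 CPM over a median of 9.93 to 11.9 CPM. In IZ it ranged from 21.0 over a median of 43.6 to 69.4 CPM. The lowest IZ library was again replicate 1, which still lay above all sham libraries. On the log2 scale the fitted difference was 2.32 ± 0.21. The difference of Cd300ld on the log2 scale was therefore smaller than that of Cd300lf, with which it shares the stretch printed above, and the ratio of Cd300ld to Cd300lf counts was 1.39 ± 0.31 (SD, n = 9) in IZ, while in sham 130 Cd300ld counts stood against 7 Cd300lf counts in all. When the counts of both genes were added before the fit, an alternative chosen after the data had been seen, the log2 fold change of the sum was 3.06.

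Cd300a encodes an inhibitory receptor with ITIMs for phosphatidylserine and phosphatidylethanolamine. Sham libraries held 1.09 to 3.17 CPM with a median of 1.41 CPM, from 2 to 8 counts each. IZ libraries held 21.7 to 44.7 CPM with a median of 36.6 CPM. The spread among IZ libraries was narrow, with a mean of 35.9 ± 7.14 CPM (SD, n = 9). The fit gave a log2 fold change of 4.19 ± 0.23.

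Cd300lb encodes CLM-7, an activating receptor that associates with DAP12. It had 0 counts in 6 of the 8 sham libraries, and 2 and 4 counts in sham replicates 3 and 8. In IZ it ranged from 4.53 CPM over a median of 13.4 to 19.6 CPM, with 8 to 107 counts. Unlike for the other 7 higher genes, its lowest IZ library was replicate 5, followed by replicate 1. The pooled ratio of IZ to sham was 32.2, with an exact 95% counting interval of 14.7 to 88.3. The fitted log2 fold change of Cd300lb was 4.79 ± 0.53, and 5.97 without sham replicate 8, whose 4 counts are most of the 6 sham counts. Gm11699, on the opposite strand, had 0 counts in every library.

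Cd300lg was the gene with the opposite course. Its sham libraries ranged from 44.0 over a median of 59.8 to 103 CPM. Its IZ libraries ranged from 6.42 over a median of 9.08 to 37.0 CPM. All IZ libraries lay below all sham libraries, but IZ replicate 1, at 37.0 CPM, was closer to sham than to the other 8 IZ libraries, which lay between 6.42 and 12.9 CPM. The IZ mean was 12.3 ± 9.44 CPM (SD, n = 9) with this library and 9.21 ± 2.02 CPM (n = 8) without it. In the fit, the log2 difference of IZ minus sham was -2.38 ± 0.28, and -2.80 without IZ replicate 1.

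The make-up of the CD300 counts therefore differed between the groups. Over the 11 CD300 genes with a row in the table, Cd300lg made up 79.8 ± 4.91% (SD, n = 8) of the counts in sham libraries and 6.28 ± 7.72% (n = 9) in IZ libraries. Its share was 26.8% in IZ replicate 1 and at most 5.29% in the other IZ libraries. Cd300lf went from 0.612 ± 0.698% to 14.6 ± 3.65%, Cd300a from 2.36 ± 0.94% to 15.3 ± 1.64%, Cd300lb from 0.527 ± 1.08% to 5.52 ± 2.03%, and Cd300ld from 12.2 ± 3.03% to 19.6 ± 3.49%. These shares are of 73 to 247 counts per sham library and 381 to 1520 per IZ library. Counts were not divided by transcript length, since each transcript gives reads from its 3′ end, so a share is compared between libraries and not between genes.

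**Figure D2:**
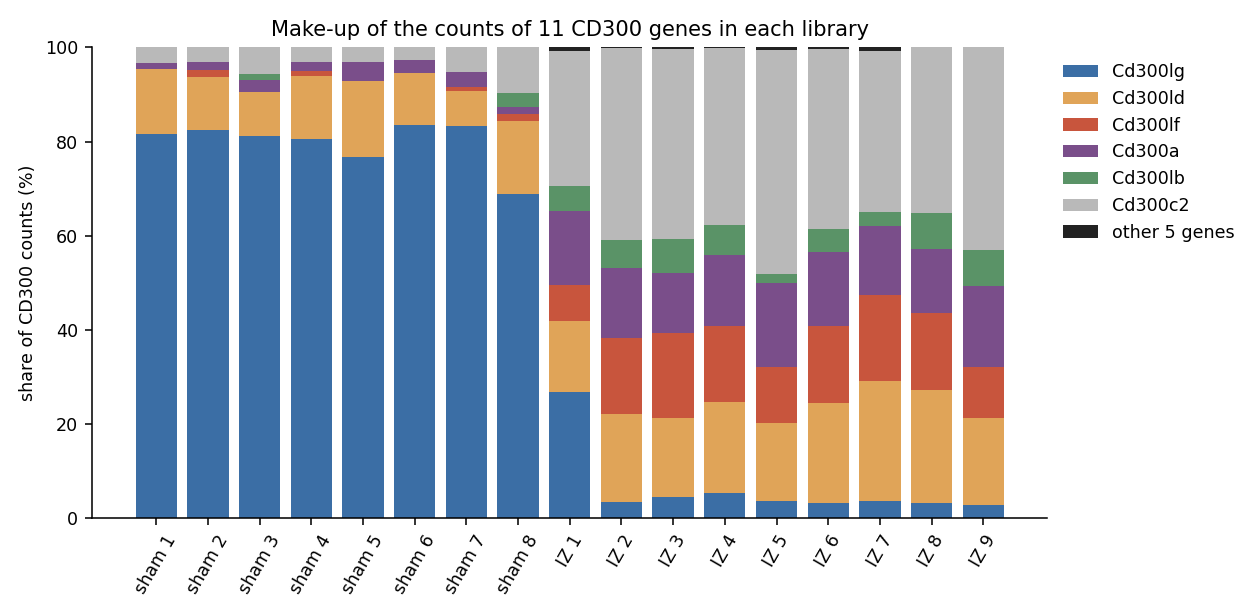
Share in percent of the counts of 11 CD300 genes taken by each gene in every library, sham 1 to 8 on the left and IZ 1 to 9 on the right. Cd300lg (blue) fills 68.9 to 83.6% of each sham bar, 26.8% of IZ 1 and at most 5.29% of the other IZ bars; Cd300c2 (grey) takes 28.6 to 47.7% of the 9 IZ bars.

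Among the CD300 genes outside the 9, only Cd300c2 passed the filter. It encodes CLM-4, and it lies next to Cd300ld in the cluster. It was higher in IZ, with 91.4 ± 21.7 CPM (SD, n = 9) against 3.75 ± 2.37 CPM (n = 8) in sham, a fitted log2 fold change of 4.58 ± 0.26. Sham libraries held 2 to 13 counts of Cd300c2 each. It thus passed the filter on low counts through IZ, and its difference is given without a p. Cd300c, Cd300e, Cd300ld3 and Cd300ld4 had 0 counts in sham and at most 3 in any IZ library, and Cd300ld5 had 0 counts in all 17 libraries. At this depth, 3 counts correspond to 1.79 CPM in an average sham library and 1.06 CPM in an average IZ library.

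Pirb encodes the inhibitory paired immunoglobulin-like receptor PIR-B, which binds MHC class I and the myelin inhibitor Nogo. Its sham libraries held 1.67 to 9.50 CPM with a median of 3.36 CPM. Its IZ libraries held 46.7 to 97.2 CPM with a median of 86.8 CPM. IZ replicates 1 and 5 were the lowest, and the other 7 lay between 82.4 and 97.2 CPM. The fitted log2 fold change was 4.35 ± 0.24.

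Of the activating partners of Pirb, Pira2, Lilra6 and Lilra5 were looked at, and other Pira genes and Pir-like rows of the table were not analysed here. Pira2 and Lilra6, whose promoters hold the same 3 GAGGAA matches as that of Pirb, together had 151 counts in IZ against 2783 for Pirb, a ratio of 0.0511 ± 0.0196 (SD, n = 9), and 5 counts in sham against 56. Pira2 had 3.60 ± 1.48 CPM in IZ and 0.0697 ± 0.197 CPM in sham, and Lilra6 had 0.828 ± 0.822 CPM and 0.278 ± 0.595 CPM. Neither passed the filter on low counts, nor did Lilra5, at 0.935 ± 0.78 CPM in IZ and 1.27 ± 1.68 CPM in sham.

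Lilrb4a encodes LILRB4, also called gp49B, an ITIM receptor of macrophages and mast cells. Sham libraries held 6.16 to 19.0 CPM with a median of 8.79 CPM. IZ libraries held 47.5 to 213 CPM with a median of 169 CPM. Replicate 1, at 47.5 CPM, was separated from the other 8 IZ libraries, which began at 146.6 CPM. On the log2 scale the fitted difference was 4.03 ± 0.27, and 4.12 without that library.

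Lilr4b, which encodes gp49A, the relative of LILRB4 without ITIMs, was higher as well, with 116 ± 36.9 CPM in IZ and 5.25 ± 1.83 CPM in sham (fitted log2 fold change 4.48 ± 0.28). With 5 to 12 counts per sham library, Lilr4b passed the filter on low counts through IZ and is given without a p. In IZ, the ratio of Lilr4b to Lilrb4a counts was nearly constant, at 0.702 ± 0.0551 (SD, n = 9), and ranged from 0.634 to 0.789. The 3′ ends of this pair were near-identical, and whether reads were shared between their rows was not tested. With the counts of Lilrb4a and Lilr4b added together, the log2 fold change was 4.19. Gm40645, which overlaps Lilrb4a on the opposite strand, had 0 counts in sham and at most 2 in any IZ library.

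Sirpa encodes SIRPα, the ITIM receptor for CD47. Sham libraries ranged from 29.5 over a median of 42.1 to 47.4 CPM. IZ libraries ranged from 111.6 over a median of 243.2 to 323 CPM. The lowest IZ library, replicate 1, still lay above all sham libraries. The fit gave a log2 fold change of 2.54 ± 0.18.

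The activating SIRP genes Sirpb1a, Sirpb1b and Sirpb1c, which signal through DAP12, were higher in IZ. The fitted log2 fold change was 5.24 ± 0.55 for Sirpb1a, 3.98 ± 0.40 for Sirpb1b and 4.88 ± 0.45 for Sirpb1c. Their levels were low, from 6.95 ± 2.63 CPM for Sirpb1a to 11.6 ± 3.94 CPM for Sirpb1c in IZ and under 1 CPM on average in sham. Sham libraries held 0 to 2 counts each, with 2 counts of Sirpb1a, 7 of Sirpb1b and 5 of Sirpb1c in all. The 3 genes thus passed the filter on low counts through IZ alone, and their differences are given as a description without a p. The ratio of pooled CPM was 53.2 for Sirpb1a (exact 95% counting interval 14.6 to 442), 18.0 for Sirpb1b (8.63 to 45.2) and 34.6 for Sirpb1c (14.7 to 107). The ratio of their summed counts to those of Sirpa was 0.0247 ± 0.0223 (SD, n = 8) in sham and 0.116 ± 0.0291 (n = 9) in IZ. Sham libraries reached at most 0.0652 and IZ libraries began at 0.0704, a narrow gap, with only 14 counts of the 3 genes in all of sham.

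Cd47 encodes the ligand of SIRPα. Under the main scaling its difference was the nearest to 0 of the 9 genes on the log2 scale, whereas with total counts as library sizes Cd300lg was nearer to 0 (-1.36, against 1.74 for Cd47). Sham libraries held 132 to 176 CPM with a median of 151 CPM, and IZ libraries held 193 to 268 CPM with a median of 243.5 CPM. The spread within both groups was narrow and the gap between them was small. The fitted log2 fold change of Cd47 was 0.66 ± 0.10, a 1.58-fold difference, against 5.81-fold for its receptor. The ratio of Cd47 to Sirpa counts was therefore 3.82 ± 0.875 (SD, n = 8) in sham and 1.07 ± 0.292 (n = 9) in IZ.

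**Figure D3:**
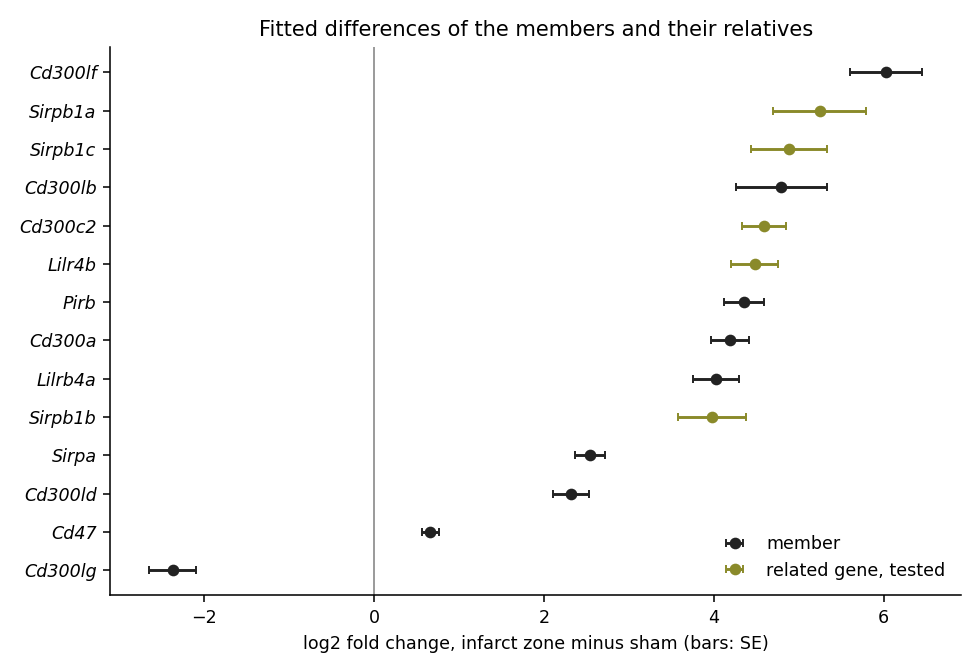
Fitted log2 fold changes of IZ minus sham for the 9 genes (black) and for the 5 tested relatives among the other CD300 genes and the activating counterparts (olive); points are edgeR estimates and bars their SE. The values run from -2.38 for Cd300lg to 6.03 for Cd300lf, with Cd47 at 0.66 nearest to 0 under this scaling.

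Related receptors, adaptors, kinases, phosphatases and ligands were taken from 7 lists, in which 88 genes had a row in the table and 65 of these passed the filter. In edgeR's test, 59 of the 65 were called higher in IZ and 4 lower, where 36.3% of all tested genes were called higher and 33.1% lower, and their median log2 fold change was 2.83, against 0.05 over all tested genes. With total counts as library sizes, 63 were called higher and 0 lower, but 85.7% of the calls over all tested genes were then higher, in place of 52.3%. Without IZ replicate 1, 58 were called higher and 4 lower, and with each library left out in turn 50 to 59 and 4. Several of the 65, Clec4d and Vav1 among them, passed the filter on low counts through IZ, so these counts are a description.

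Among ITAM adaptors and activating partners, all 10 tested genes of 15 with a row were called higher, with a median log2 fold change of 3.71. They ran from Clec5a, a DAP12-coupled lectin receptor (2.32 ± 0.33), to Clec4d, a lectin receptor of myeloid cells (5.46 ± 0.39). Sham libraries held 1 to 6 counts of Clec5a and 0 to 7 of Clec4d. These genes passed the filter on low counts through IZ and are given without a p. Both adaptors rose, Tyrobp (DAP12) from 29.8 ± 8.49 to 432 ± 123 CPM and Fcer1g (the Fc receptor gamma chain) from 17.8 ± 4.75 to 184.6 ± 49.3 CPM.

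Among genes listed as other inhibitory ITIM receptors, whose motifs were not searched here, 11 of 13 tested were called higher. Of the others, 1 was called lower and 1 was not called, and the median was 3.12. The highest was Cd72, an inhibitory receptor of B cells and macrophages (3.88 ± 0.18). It had 5 to 10 counts per sham library, passed the filter on low counts through IZ and is given without a p. The lowest was Ceacam1, a receptor of endothelial and epithelial cells as well as leukocytes, with -0.94 ± 0.28 (adjusted p = 0.00444). When total counts set the library sizes it was 0.13, and -0.95 relative to the shift of the median of all tested genes. Pecam1, which is both an ITIM receptor and an endothelial junction protein, had 149 ± 41.1 CPM in sham and 133 ± 33.7 CPM in IZ (adjusted p = 0.414).

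The enzymes that carry the inhibitory signal differed from one another. Of 12 tested phosphatases and inhibitory adaptors, 10 were called higher and 2 lower, with a median of 1.72. Ptpn6 (SHP-1), which is made mainly by blood cells, rose by 3.28 ± 0.22, and Inpp5d (SHIP-1) by 3.25 ± 0.25, whereas their widely expressed relatives were lower, Ptpn11 (SHP-2) with -0.94 ± 0.11 (adjusted p = 5.8e-08) and Inppl1 (SHIP-2) with -0.70 ± 0.10 (adjusted p = 1.68e-06). With total counts as library sizes, Ptpn11 stood at 0.12 and Inppl1 at 0.38, above 0, while the median of all tested genes moved up by 1.08. Relative to that shift they stood at -0.96 and -0.70. The highest was Dok1, an adaptor that restrains Ras (3.57 ± 0.25), which is given without a p. It had 1 to 12 counts per sham library and passed the filter on low counts through IZ.

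Of 15 tested proximal kinases and effectors, 13 were called higher and 1 lower, with a median of 2.45. Vav1, a guanine nucleotide exchange factor of blood cells, was the highest (4.10 ± 0.27). With 1 to 8 counts per sham library it passed the filter on low counts through IZ, and no p is given. Fyb, an adaptor of T cells and platelets among other blood cells, was the lowest at -0.40 ± 0.11 (adjusted p = 0.00298). Its level was 102.6 ± 11.7 CPM in sham and 78.1 ± 12.7 CPM in IZ, and the cells behind it were not tested. With total counts as library sizes it was 0.68, and -0.40 relative to the shift of the median of all tested genes. The kinase Syk, which activating members share, rose by 1.38 ± 0.15 (adjusted p = 2.3e-08), and the kinase Lyn, which phosphorylates ITIMs, by 1.54 ± 0.14 (adjusted p = 1.47e-09).

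All 10 tested genes of the list of ligands, which also holds the receptor chain gene Il4ra, were called higher, with a median of 2.24. They ran from H2-K1, an MHC class I heavy chain bound by PIR-B (1.14 ± 0.15, adjusted p = 4.51e-07), to Fn1, fibronectin, a ligand reported for LILRB4 (4.25 ± 0.23, adjusted p = 9.94e-13). Thbs1, thrombospondin-1, a ligand of CD47 besides SIRPα, went from 20.4 ± 7.75 to 258 ± 115 CPM.

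**Figure D4:**
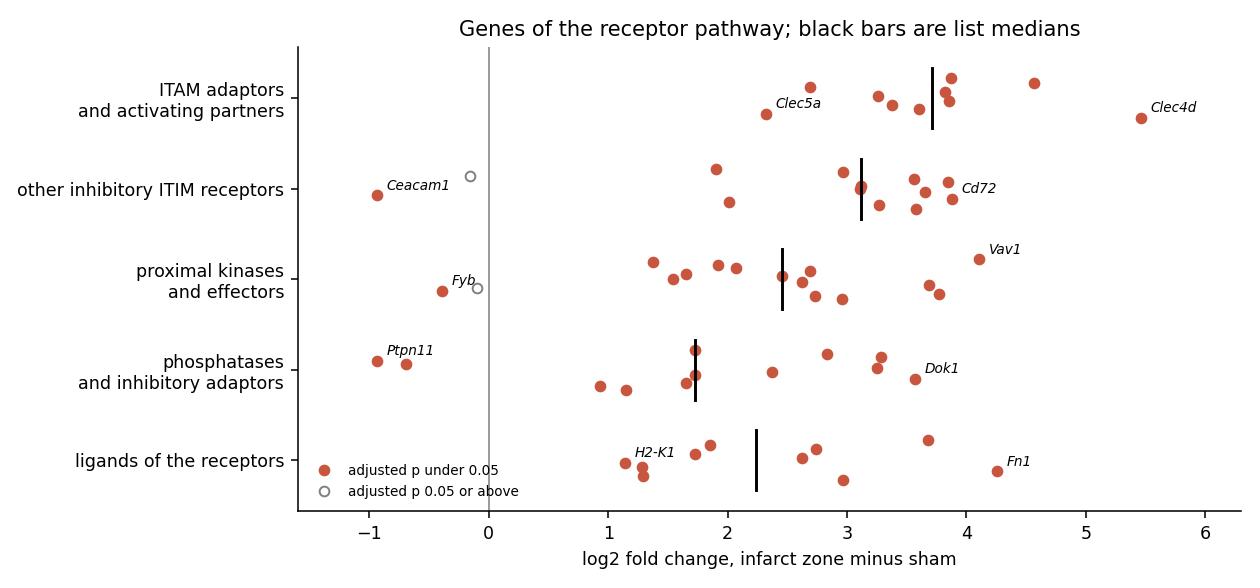
Log2 fold change of IZ minus sham for the tested genes of 5 lists of the receptor pathway, 1 point per gene, filled where the adjusted p was under 0.05 and open otherwise; black bars are list medians, from 1.72 for phosphatases and inhibitory adaptors to 3.71 for ITAM adaptors and activating partners. The lowest and the highest gene of each list are named.

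Markers of several cell types also differed in level between sham and IZ. All 9 macrophage markers with a row were called higher in IZ in edgeR's test, and their sum was 435 to 613 CPM in sham and 2117 to 5676 CPM in IZ. Lyz2 was the largest part of that sum, with a mean of 259 CPM in sham and 2742 CPM in IZ. Of the 8 neutrophil markers 4 were tested, all called higher, with a sum of 5.00 to 12.3 CPM in sham and 15.9 to 220 CPM in IZ, while the defining marker Ly6g had at most 3 counts in any library. Some of these 4 had few sham counts and passed the filter on low counts through IZ. The lymphocyte markers, of which none of the 7 passed the filter, summed to 0.00 to 3.11 and 4.34 to 12.2 CPM. Of the 5 mast cell markers, whose sum was 2.38 to 9.48 CPM in sham and 6.52 to 19.3 CPM in IZ, Kit alone was tested and called higher and made up most of the sum. Mean levels of Mcpt4 were 0.995 CPM in sham and 0.279 CPM in IZ, those of Cma1 1.89 and 1.11 CPM and those of Cpa3 0.205 and 0.256 CPM, all untested, and the defining marker Ms4a2 had at most 3 counts. Of the 6 dendritic cell markers Zbtb46 alone was tested and called lower, with a log2 fold change of -0.81 (sums of 11.1 to 29.2 against 16.7 to 24.0 CPM). With total counts, where the median of all tested genes moved up by 1.08, Zbtb46 was at 0.24. The mean levels of the untested Ccr7 (0.205 CPM in sham and 3.59 CPM in IZ), Flt3 (0.234 and 2.38 CPM), Xcr1 (0.267 and 1.26 CPM), Cd209a (0.630 and 3.38 CPM) and Clec9a (1.5 and 2.14 CPM) were each numerically higher in IZ. The part of these cells in the levels of the 8 higher genes was not tested.

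For Cd300lg the endothelial genes are the ones to set beside it. Of the 8 endothelial markers, 4 were called lower and 4 were not called, with a median log2 fold change of -0.43 (0.62 with total counts as library sizes, where 6 were called higher and 1 lower) and a sum of 433 to 814 CPM in sham and 294 to 529 CPM in IZ. Each of the 6 capillary lipid endothelial markers was lower in IZ by the same test. Their median was -2.31 (-1.27 with total counts, where 5 were called lower), and they summed to 2501 to 3756 CPM in sham and 525.6 to 1338 CPM in IZ. The log2 fold change of Cd300lg was -2.38 (-1.36 with total counts). With total counts the median of all tested genes moved up by 1.08. Some genes of the second list, Cd36 and Fabp4 among them, are also made by cardiomyocytes, whose 8 markers were all called lower. Fibroblast markers, by contrast, were called higher for 5 of 6. The part of these cells in the level of Cd300lg was not tested.

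Within the IZ, each gene was compared over the 9 libraries with the summed macrophage markers, and Cd300lg and Cd47 also with the summed endothelial markers, 11 relations in all, on log2 CPM with exact two-sided permutation tests over all 362880 pairings and Benjamini-Hochberg adjustment over the 11. Lyz2 weighs most in the macrophage sum, and relations with single markers were not tested. Pearson's r with the macrophage markers ran from 0.63 for Cd300lb to 0.90 for Lilrb4a among the 8 higher genes, and 0 of the 8 passed after adjustment (exact adjusted p from 0.0725 to 0.0914). Spearman's rho was from 0.10 to 0.47 for 7 of them. Of the 8, 5 had an unadjusted p under 0.05. These values of r rest on the outlying libraries: without the 2 libraries farthest from the median marker level, replicates 1 and 8, r was between -0.42 and 0.51 for the same 7 genes.

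Cd300lb was the exception. Its Spearman's rho with the macrophage markers was 0.93 (exact permutation p = 0.00075, adjusted p = 0.00825), and its r of 0.63 (exact p = 0.0709, adjusted p = 0.0867) became 0.80 without the 2 farthest libraries (exact p = 0.0252, adjusted p = 0.277).

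For Cd300lg, r with the endothelial markers was 0.85 (exact permutation p = 0.00305, adjusted p = 0.0335) and rho 0.83 (exact p = 0.00827, adjusted p = 0.0455), but r was 0.51 (exact p = 0.24) without replicates 1 and 9, the 2 farthest from the median, so the relation rests on those libraries. The adjusted p was also above 0.05 without replicate 1, 3, 6 or 8 alone. With the macrophage markers, r was -0.88 (exact p = 0.0338, adjusted p = 0.0725), -0.22 without replicate 1 and -0.14 without replicates 1 and 8. For Cd47 and the endothelial markers, r was -0.25 (exact p = 0.514).

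**Figure D5:**
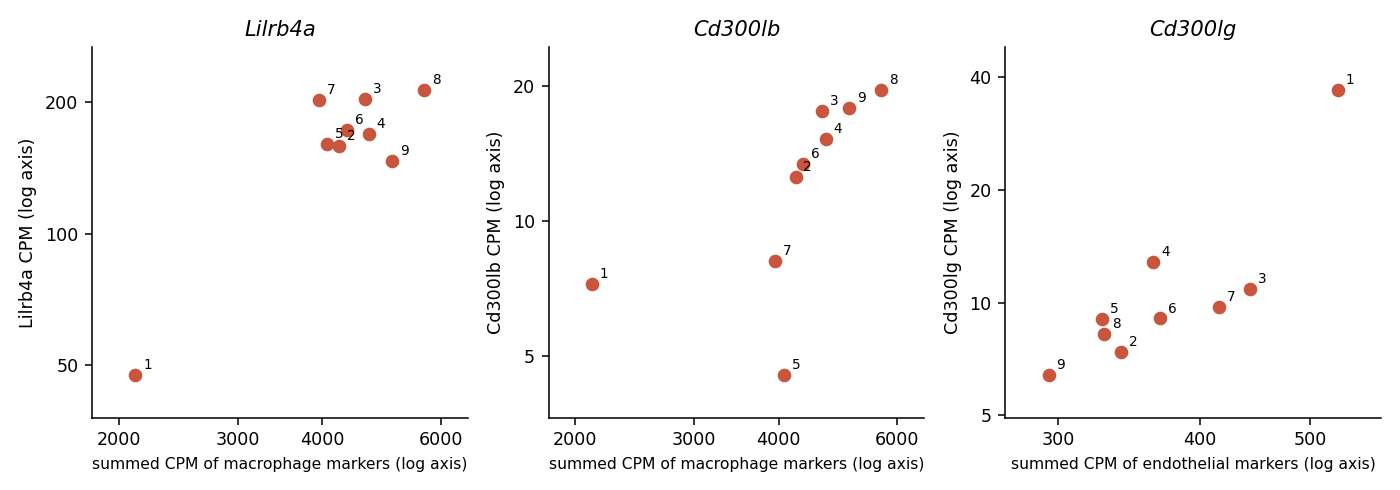
Levels of Lilrb4a, Cd300lb and Cd300lg against summed markers in the 9 IZ libraries, in CPM on log axes, with each point numbered by replicate. Replicate 1 lies alone at the low end for Lilrb4a (r = 0.90, rho = 0.40) and alone at the high end for Cd300lg (r = 0.85), while Cd300lb rises in rank with the macrophage markers (rho = 0.93).

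The genes most like each of the 9 were sought among 9347 other genes, each averaging 10 CPM or more, by Pearson's r of log2 CPM after each group's mean had been taken out, over the 17 libraries. These values are a description, since all genes share the libraries and their depth. For Cd300lg they were Epas1, the hypoxia factor HIF-2α (0.88), Tacc2 (0.86) and mt-Rnr2, the mitochondrial large ribosomal RNA (0.84), and without IZ replicate 1 the values fell to 0.65, 0.52 and 0.46. Among IZ libraries the summed cardiomyocyte markers were also highest in replicate 1, and their relation to Cd300lg was not tested. For Cd300lb the most alike genes were Katnbl1 (0.86), Gm6170 (0.80) and Wfdc17 (0.79), with 0.85, 0.79 and 0.86 without IZ replicate 1.

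The inhibitory genes had other neighbours. Cd300a was most like Tmem45a (0.91), Galnt10 (0.84) and Myof (0.81), and Cd300lf most like Nt5c (0.87), Gm6166 (0.87) and Ccdc88b (0.85). Pirb was most like Inf2 (0.87), Cdc42se1 (0.87) and Ccdc102a (0.85), and Lilrb4a most like Gm8430 (0.91), Olfml3 (0.90) and Rps12-ps9 (0.89). Sirpa was most like Rpl5 (0.90), Cerk (0.89) and Rpl14-ps1 (0.89). Cd300ld was most like the lysosomal nuclease gene Dnase2a (0.93), Mrtfa (0.92) and Hmgn5 (0.90), and Cd47 most like Plac8 (0.90), Fubp3 (0.86) and Rab32 (0.85). Without IZ replicate 1 these values were from 0.74 for Lilrb4a and Rps12-ps9 to 0.90 for Cd300a and Tmem45a.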

How the data were processed

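RNA of 8 sham left ventricles and 9 infarct zones was sequenced by MACE with unique molecular identifiers. The authors trimmed reads with Cutadapt, mapped them to mm10 and counted them with HTSeq, and the deposited values are raw counts per gene for 17 libraries. Bowtie2 and bcl2fastq are named in the submitters' processing notes. Whether duplicates were collapsed and how reads with several positions or on the opposite strand were treated is not given in the sources used here. Of 31647 features, 35 merge several genes, and Lilrb4a has only such a row. Itgam and Pik3r5 were not analysed here for the same reason.

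Counts were filtered (filterByExpr, minimum count of 10), scaled by the trimmed mean of M-values and tested with edgeR 4.0.16 (glmQLFit, glmQLFTest) across 12301 genes, with Benjamini-Hochberg adjustment at 0.05. The procedure was first tested on simulated counts in which 200 of 12301 genes differed by 1 (log2). It recovered 78.5% of these, and 7.1% of its calls were false. Far more genes were called in the real data, so the simulation does not give their error rate. Each SE was derived from the main fit's test, as the absolute log2 fold change over the square root of F. It is approximate, above all for genes with few sham counts. Log2 CPM used a prior count of 1. The study's methods use DESeq2, which was run as an alternative (1.42.0). Transcripts (GENCODE vM21) were compared with blastn 2.17.0, and relations were tested with scipy 1.17.1. A comparison of protein motifs was not run.

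The 9 genes and all gene lists were chosen with earlier results of these data known. Named beside the 9 were the highest and lowest tested gene of each list, all relatives, and for each of the 9 the 3 genes with the highest group-centred r. Tyrobp, Fcer1g, Pecam1, Ptpn6, Inpp5d, Inppl1, Syk, Lyn, Thbs1 and Il4ra, single mast and dendritic cell markers, and markers at or under 3 counts, were named after their values were seen. Alternatives were other scalings, filters, depths and tests, summed near-identical genes, a replicate block and leaving out each library.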

Additional observations from a re-analysis of the deposited data

Results flagged for a closer look

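For 18 sets of values, the 9 genes in each group, the gap of the highest or the lowest library to its neighbour was compared with the range of the group by Dixon's criterion, which chance alone passes in about 1 of 20. IZ replicate 1 stood out in 2 of the 18. Its Cd300lg level was 37.0 CPM, against 6.42 to 12.9 CPM in the other 8 IZ libraries. Its Lilrb4a level was 47.5 CPM, against 146.6 to 213 CPM. The same library had mitochondrially encoded transcripts at 19.5% of its counts, against 4.22 to 6.78% in the other IZ libraries and 22.9 to 32.4% in sham, and the part of this in the levels was not tested.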

How the results depend on the processing

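All 9 genes kept their direction under every alternative that gave a value; Cd300lb was filtered out with a minimum mean of 50 counts or thinning. With total counts as library sizes, the median of all tested genes moved up by 1.08 (log2), and 85.7% of calls were higher in place of 52.3%. Cd300lg was then at -1.36 and Cd47 at 1.74, and relative to that shift at -2.44 and 0.66. Upper quartile scaling moved the median by 0.11. Thinned to the smallest total, Cd300a was at 4.89, and Cd300lb was at 5.97 without sham replicate 8.

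In place of 8544 called genes there were 5239 with a minimum mean of 50 counts, a setting with fewer genes tested (6734), and 39 in place of 59 pathway genes were then called higher. Pathway genes called lower numbered 2 after thinning and 0 with total counts, in place of 4. Near-identical genes numbered 12 in place of 2 when all annotated transcripts were searched. With the replicate block, 8079 genes were called, and 59 and 4 pathway genes. Same-numbered sham and IZ libraries are different mice, their deviations correlated from -0.22 to 0.13, and 1 of 8 pairs was best with its own number.

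Cd300lg and the endothelial markers had r = 0.49 on total-count CPM and 0.51 without the 2 farthest libraries, neither past the threshold, and 0.69 to 0.90 with each IZ library left out, where the call was lost without replicate 1, 3, 6 or 8. With the macrophage markers, leaving out each IZ library gave r from -0.13 to 0.89 for Cd300lf, -0.26 to 0.76 for Cd300a, -0.92 to -0.22 for Cd300lg, 0.079 to 0.91 for Cd300ld, 0.56 to 0.86 for Cd300lb, 0.27 to 0.90 for Pirb, 0.19 to 0.95 for Lilrb4a, 0.21 to 0.92 for Sirpa and 0.14 to 0.85 for Cd47, with the value nearest to 0, or of opposite sign for Cd300lf and Cd300a, without replicate 1 for all but Cd300lb. Without the 2 farthest libraries the sign turned for Cd300lf (-0.42), Cd300ld (-0.41), Cd300a (-0.20), Lilrb4a (-0.37), Sirpa (-0.40) and Cd47 (-0.14). For Cd47 and the endothelial markers, r turned from -0.25 to 0.21 on total-count CPM and 0.31 without the 2 farthest, and was -0.50 to 0.55 with each IZ library left out, highest without replicate 1. For Cd300ld, Cd300lb, Pirb, Lilrb4a, Sirpa and Cd47 with the macrophage markers, at least 1 such fit passed the threshold, without replicate 5 (Cd300lb), replicate 7 (Cd300ld, Lilrb4a and Pirb) or replicate 9 (Cd47, Lilrb4a and Sirpa). Causes were not tested. Depth limits Cd300lf and Cd300lb in sham, with 7 and 6 counts in all.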
